A study of Arabidopsis thaliana with 2 samples.

Results

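Pericentromeric intervals are the stretches on either side of each centromere, and 1381 annotated genes of Arabidopsis thaliana lay in those described here. A gene was counted when its whole locus fell between 14.3 and 15.6 Mb on chromosome 1, 3.2 and 4.2 Mb on chromosome 2, 13.0 and 14.0 Mb on chromosome 3, 3.0 and 5.0 Mb on chromosome 4, or 11.2 and 12.8 Mb on chromosome 5 (TAIR10). They were chosen by position alone, out of 33557 genes in the files, of which 33278 are nuclear. The other 31897 nuclear genes served as the comparison. RNA-seq was made from whole seedlings of the Col0 arp6-1 mutant, which carries a mutation in the gene of a subunit of the complex that places the histone variant H2A.Z. The seedlings were 10 days old, had grown at 17 °C in long days and were collected at 17 °C, 15 min into a temperature-shift series begun at ZT1 (1 h after lights on). The group had 2 libraries, called replicates 1 and 2, and no wild type or other group was used, so nothing below is an effect of the mutation. The labels do not say whether the replicates came from separate sowings, and p-values therefore measure only the difference between these libraries.

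Chromatin around plant centromeres is mostly heterochromatin: compact, rich in transposable elements and their remains, and marked by dense DNA methylation and methylated histone H3. These marks keep most of the elements silent. Single genes that lie within such chromatin can nevertheless be transcribed, and in Arabidopsis H2A.Z and DNA methylation are known to occupy largely separate parts of the genome.

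To set a locus with many reads beside a neighbour without reads, windows from 250 bases before to 50 bases after the annotated start are printed. They are given for the 2 genes with the highest levels and, for each, the nearest interval gene with 0 counts in both libraries. RPS1 (AT5G30510, the plastid ribosomal protein S1) has its window at chr5:11621249-11621548, and AT5G29646, an annotated pseudogene whose span begins 0.851 kb away, at chr5:11630247-11630546. The peroxidase gene AT3G32980 has its window at chr3:13530049-13530348, and AT3G32975, a pseudogene 1.98 kb away with a near-identical nuclear copy, at chr3:13524065-13524364. All 4 are read 5′ to 3′ from the minus strand of the RefSeq sequence of TAIR10.1, and capitals mark TATAAA, or TTTATA where the match is on the opposite strand.
AT5G30510: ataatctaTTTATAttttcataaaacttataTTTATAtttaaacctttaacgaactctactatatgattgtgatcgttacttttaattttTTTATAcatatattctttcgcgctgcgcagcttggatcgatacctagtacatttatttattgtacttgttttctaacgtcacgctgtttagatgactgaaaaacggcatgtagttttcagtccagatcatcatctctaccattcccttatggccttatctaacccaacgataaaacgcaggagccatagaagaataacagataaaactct
AT5G29646: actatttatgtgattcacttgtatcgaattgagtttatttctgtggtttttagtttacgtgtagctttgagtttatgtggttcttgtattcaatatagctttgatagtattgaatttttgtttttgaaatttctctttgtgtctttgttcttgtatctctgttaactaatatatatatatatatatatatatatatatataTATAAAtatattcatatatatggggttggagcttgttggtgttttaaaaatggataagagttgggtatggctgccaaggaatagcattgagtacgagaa
AT3G32980: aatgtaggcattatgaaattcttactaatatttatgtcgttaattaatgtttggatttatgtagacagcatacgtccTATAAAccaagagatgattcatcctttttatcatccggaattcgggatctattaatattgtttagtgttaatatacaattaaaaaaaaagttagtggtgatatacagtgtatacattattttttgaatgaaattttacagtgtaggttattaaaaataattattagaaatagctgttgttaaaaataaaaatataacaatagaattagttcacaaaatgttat
AT3G32975: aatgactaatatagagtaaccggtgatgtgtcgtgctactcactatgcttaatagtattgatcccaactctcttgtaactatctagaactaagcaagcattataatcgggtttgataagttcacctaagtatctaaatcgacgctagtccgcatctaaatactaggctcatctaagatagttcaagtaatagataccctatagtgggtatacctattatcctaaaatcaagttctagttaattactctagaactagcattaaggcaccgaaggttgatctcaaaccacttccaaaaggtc
RPS1 had 12510 counts in replicate 1 and 5932 in replicate 2, and AT3G32980 had 8195 and 3547, against 0 and 0 for each neighbour. TATAAA, the core of the TATA box, occurred in 3 of these 4 windows, the pseudogene AT5G29646 included.

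Few interval genes had reads. A gene was called detected when it had at least 10 counts in both libraries, and 45 of the 1381 interval genes (3.26%) met this, against 60.8% of the other nuclear genes (19401 of 31897). No read at all was counted in either library for 1211 interval genes (87.7%), against 7736 of the others (24.3%). Between these lay 125 interval genes with some reads that were not detected. All interval genes together took 43684 counts in replicate 1, or 0.216% of the library (95% Clopper-Pearson interval 0.214% to 0.218%), and 21695 in replicate 2, or 0.175% (0.172% to 0.177%). Few genes lay near the threshold: 3 detected genes had a lower count of 10 to 19, and 7 undetected genes one of 5 to 9. In replicate 1 alone 59 genes reached 10 counts, and in replicate 2 alone 46.

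Replicate 1 held 20249142 counts and replicate 2 held 12410991. For a gene with 0 counts, up to 3 counts remain possible, or 0.148 and 0.242 CPM (counts scaled to the library total). These limits, like every interval given, describe counting error alone, because reads that carry no molecular identifier need not be separate molecules. In bulk seedlings, fewer cells that transcribe a gene and less RNA per cell cannot be told apart. ARP6 itself (AT3G33520), which lies 93.7 kb outside the interval of chromosome 3, had 7 counts in each library, and its span overlaps another gene. Leaf and root marker genes were present (RBCS1A at 4101 and 4199 TPM, a level corrected for transcript length and library size), and of the 7 flower, pollen and seed markers none had more than 1 count in a library.

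The detected share was 3.17% to 4.17% in the intervals of chromosomes 2 to 5 and 0% on chromosome 1. In the rest of the chromosomes it was 55.7% to 63.4%. On chromosome 1, 0 of 144 genes were detected, 139 had no read in either library, and the whole interval held 7 counts in replicate 1 and 2 counts in replicate 2. AT1G41797 had the most, with 4 and 0 counts, followed by AT1G40089 with 1 and 1 and AT1G39990 with 0 and 1. Only AT1G41797, in replicate 1, had more than the 3 counts that remain possible for a gene at 0. On chromosome 2, 9 of 278 genes were detected (3.24%), and on chromosome 3, 6 of 189 (3.17%). Chromosome 4 had 18 of 432 (4.17%), the most in number, and chromosome 5 had 12 of 338 (3.55%). Detected genes were spaced at 6.52 per Mb over the 6.9 Mb of all intervals, against 173 per Mb in the rest of the nuclear genome, whereas annotated genes stood at 200 against 284 per Mb.

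Pooled over chromosomes, the detected share was higher with each step away from the intervals. Within 0.5 Mb outside their ends 126 of 1125 genes (11.2%) were detected, at 0.5 to 1 Mb 214 of 1113 (19.2%), at 1 to 2 Mb 840 of 2501 (33.6%), and at 2 to 3 Mb 1396 of 2638 (52.9%). At 3 to 5 Mb it was 64.3% (2973 of 4627), above the 60.8% of all other nuclear genes. Chromosomes 3 and 4 lay at opposite ends next to the intervals, with 5.26% and 30.0% detected within 0.5 Mb. In bins of 0.25 Mb within 0.5 Mb of the middle, the highest share was 9.43%, on chromosome 4.

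**Figure D1:**
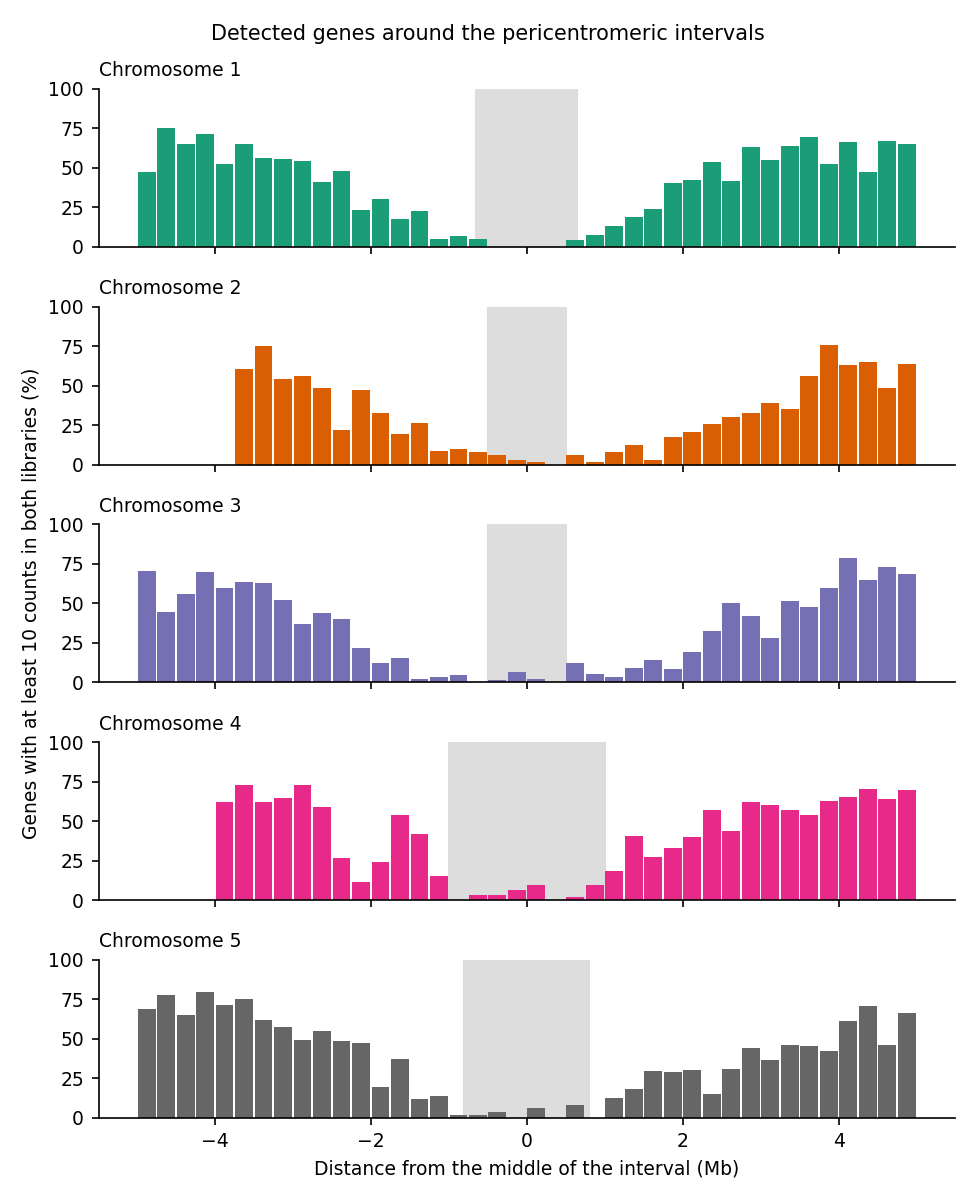
Detected share of genes (y axis, percent) in bins of 0.25 Mb by distance from the middle of each interval (x axis, Mb), with 1 panel per chromosome and the interval shaded grey. The bars are at 0 within 0.5 Mb of the middle on chromosome 1 (the bins at its ends also hold genes outside the interval), stay low in the other intervals, and climb within about 3 Mb on either side.

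Long stretches of the intervals held no detected gene. Gaps were measured within the intervals, so a gap that reaches a border is cut off there. The longest gap was the whole 1300 kb on chromosome 1, then 470 kb on chromosome 3, 461 kb on chromosome 5, 439 kb on chromosome 4 and 418 kb on chromosome 2. Those on chromosomes 1, 2 and 3 reach a border, and those on chromosomes 4 and 5 lie between detected genes. The longest unbroken runs of genes with 0 counts in both libraries held 63 genes on chromosome 5 and 62 on chromosome 4, against 37 on chromosome 2. Detected genes were often neighbours: 22 of the 45 (48.9%) had another detected gene directly beside them, against 61 of the 1336 undetected interval genes (4.57%). Among the other nuclear genes the same figures were 90.8% and 63.6%. The 22 formed 9 runs: 7 pairs and 2 runs of 4.

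The run on chromosome 3 spanned 8.49 kb at 13485294 to 13493787 and held the detected gene nearest to the middle of any interval. That gene, AT3G32940, encodes a protein with a KH domain (an RNA-binding fold), lay 7.63 kb from the middle and had 17.8 and 26.4 TPM. Its neighbour AT3G32930, annotated as a lumazine synthase, an enzyme of riboflavin synthesis, had 139 and 121 TPM. The other members of the run were at the low end of the detected genes: AT3G32925, a pseudogene, had 25 and 26 counts, and AT3G32920 had 13 and 15. AT3G32925, the only detected pseudogene not annotated as transcribed, lies wholly inside AT3G32920 on the same strand, so their reads cannot be told apart. The run on chromosome 5 spanned 11.7 kb at 12076893 to 12088603 and began 77.7 kb from the middle. It held AT5G32440 (a Cue domain protein of the ubiquitin system, 62.6 and 78.0 TPM), AT5G32450 (an RNA-binding protein, 81.7 and 52.8 TPM), AT5G32460 (a transcription factor with a B3 domain, 3.37 and 2.08 TPM) and AT5G32470 (18.9 and 21.7 TPM). Levels within a run thus spread widely, from 2.72 ± 0.917 TPM (SD, n = 2) to 70.3 ± 10.8 TPM in the chromosome 5 run. On chromosomes 4 and 2 the nearest detected genes to the middle were AT4G06701, a non-coding RNA at 60.0 kb with 1.74 and 3.27 TPM, and AT2G09990 at 81.7 kb.

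Most interval genes were pseudogenes by annotation. Pseudogenes made up 1065 of the 1381 genes, and 1 of them was detected (0.0939%), against 96 of 2846 pseudogenes elsewhere (3.37%). Of transcribed pseudogenes 4 of 86 were detected (4.65%, against 9.88% elsewhere), and of tRNA genes 0 of 22 (0.166% elsewhere). Other non-coding RNAs, with 2 of 7 detected (28.6%), were not below the share elsewhere (147 of 652, 22.5%). Protein-coding genes gave 38 of the 45 detected genes, from 186 in the intervals (20.4%), against 71.9% of the others (19057 of 26501). No separate class for transposable element genes was used here, so the pseudogene class may hold such genes. The annotation gives nearly all pseudogenes here no family, so transposon families could not be compared. It names a transposon family or a transposase for 4 interval genes, AT1G40087 (an En/Spm transposase), AT3G32130 (a non-LTR element) and AT5G31412 and AT5G33406 (both hAT), and all 4 had 0 counts in both libraries.

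Near-identical copies were common in the intervals and bear on what the counts can show, since how the authors counted reads that match several places is not known. The part of such reads in the results was not tested. A match of at least 95% identity over at least 80% of the span elsewhere in the nuclear genome was found for 387 interval genes (28.0%), against 6.36% of the others. Of these 387, only AT3G32030, a terpenoid cyclase gene with 77 and 32 counts, was detected (0.258%). Elsewhere 199 of 2030 genes with a nuclear copy were detected (9.80%). Among the 888 interval genes with no such copy in the nucleus or an organelle, 38 were detected (4.28%) and 809 (91.1%) had 0 counts in both libraries. For genes elsewhere with no such copy the same figures were 64.3% and 20.7%. Protein-coding genes with no copy numbered 109, of which 35 were detected (32.1%) and 63 (57.8%) had no read, against 72.9% detected and 12.5% without a read elsewhere. The share detected was also lower in the intervals within this class, though the gap was smaller than over all classes. Genes with a match below these cutoffs remain in the class, and 6 of the 109 overlap another gene, so not all their reads need be assignable.

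**Figure D2:**
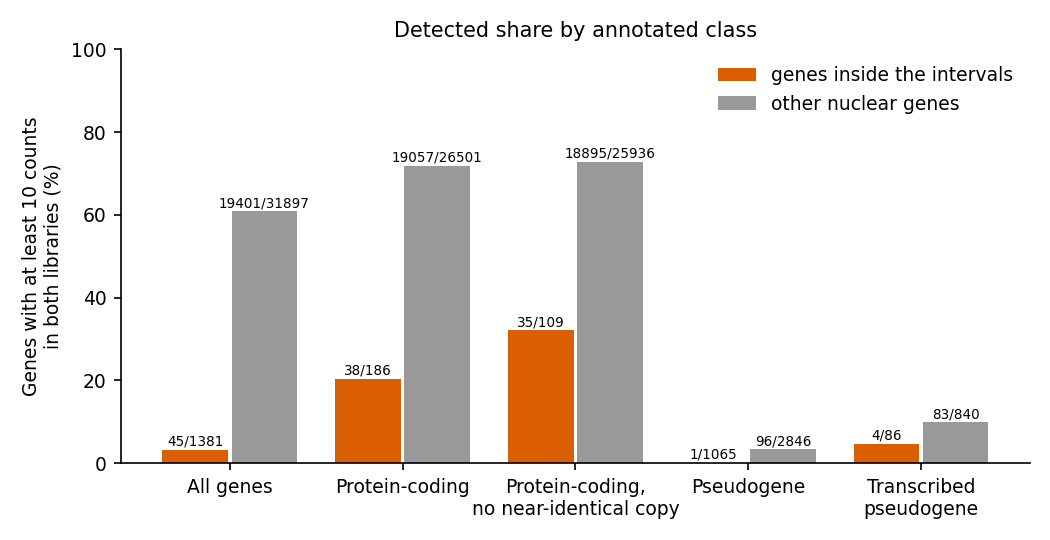
Detected share of genes (y axis, percent) by annotated class (x axis), for the intervals and for all other nuclear genes, as paired bars starting at 0. The interval bar is lower for pseudogenes (0.0939% against 3.37%), for all protein-coding genes (20.4% against 71.9%) and for protein-coding genes with no near-identical copy (32.1% against 72.9%).

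The genes that were detected reached ordinary levels. Their median was 15.0 TPM in replicate 1 (quartiles 4.58 to 35.4) and 13.3 in replicate 2 (3.68 to 35.3), against 17.7 (6.97 to 43.1) and 18.1 (6.55 to 45.5) for the detected genes outside. These medians hold only genes past the count minimum, and over all interval genes the median was 0 in both libraries, against 2.62 and 2.53 for the others on the log2(TPM + 1) scale. Replicates ranked the 45 alike, with a Spearman's rho of 0.953 across genes, which are not independent replicates.

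Genes of translation and RNA handling included the highest. RPS1 had 656 TPM in replicate 1 and 519 in replicate 2 (587 ± 97.2, SD, n = 2), rank 166 among all nuclear genes, and alone held 28.6% and 27.3% of the reads of all intervals. AT2G09990, which encodes a protein with a ribosomal S5 domain, had 139 and 87.1 TPM. PCN (AT4G07410), a WD-40 repeat protein known for its role in embryo development, had 41.8 and 41.5 TPM, and the difference between its replicates did not pass the binomial test described below (exact adjusted p = 0.663). AT5G30495, an Fcf2 protein of pre-rRNA processing, had 12.8 and 9.91 TPM, and AT4G07950, an RNA polymerase subunit, 8.51 and 7.39. Those last 2, and the genes below that lie outside the 15 highest and the largest differences, were picked as examples after their values were seen.

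Other detected genes act in metabolism and transport. AT3G32980, a class III peroxidase, had 443 and 320 TPM (381 ± 87.2, SD, n = 2), rank 372, and lay 28.0 kb from the middle of its interval. CUE1 (AT5G33320), the plastid envelope translocator that imports phosphoenolpyruvate, had 138 and 95.7 TPM, with a span that overlaps another gene. AT5G33280, a voltage-gated chloride channel family member, had 21.4 and 24.2 TPM. In the same interval, XGD1, a xylosyltransferase acting on pectin, had 11.7 and 13.3 TPM. AT4G07390, related to a protein that acts in dolichol sugar use, had 48.8 and 65.9 TPM, and the ABC transporter gene ABCC13 had 17.0 and 12.0.

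Other detected genes are described by their annotated products. ACS11, a synthase of the ethylene precursor, had 17.3 and 13.4 TPM. The zinc finger transcription factor gene YY1 had 15.0 and 14.9, a near match between replicates. VFB3, an F-box protein gene, had 4.87 and 3.91, and RAP2.9, an AP2/ERF transcription factor gene, 4.99 and 3.68. AT4G06598, which encodes a basic leucine zipper factor, had 23.8 and 20.2 TPM. AT4G06599, a ubiquitin family gene, had 43.0 and 52.1 TPM, and the spans of both overlap another gene. AT4G06744, which encodes leucine-rich repeats, had 35.4 and 35.3 TPM, AT4G07825, annotated as an uncharacterized protein, 59.0 and 72.2, and the non-coding RNA AT4G08035 25.4 and 29.3, the highest of the genes that do not code for protein. For AT4G08035 the authors' deposited TPM averaged 52.0, against 27.3 here, and for AT3G32980 the level was 182 TPM when the whole span replaced the exon length.

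**Figure D3:**
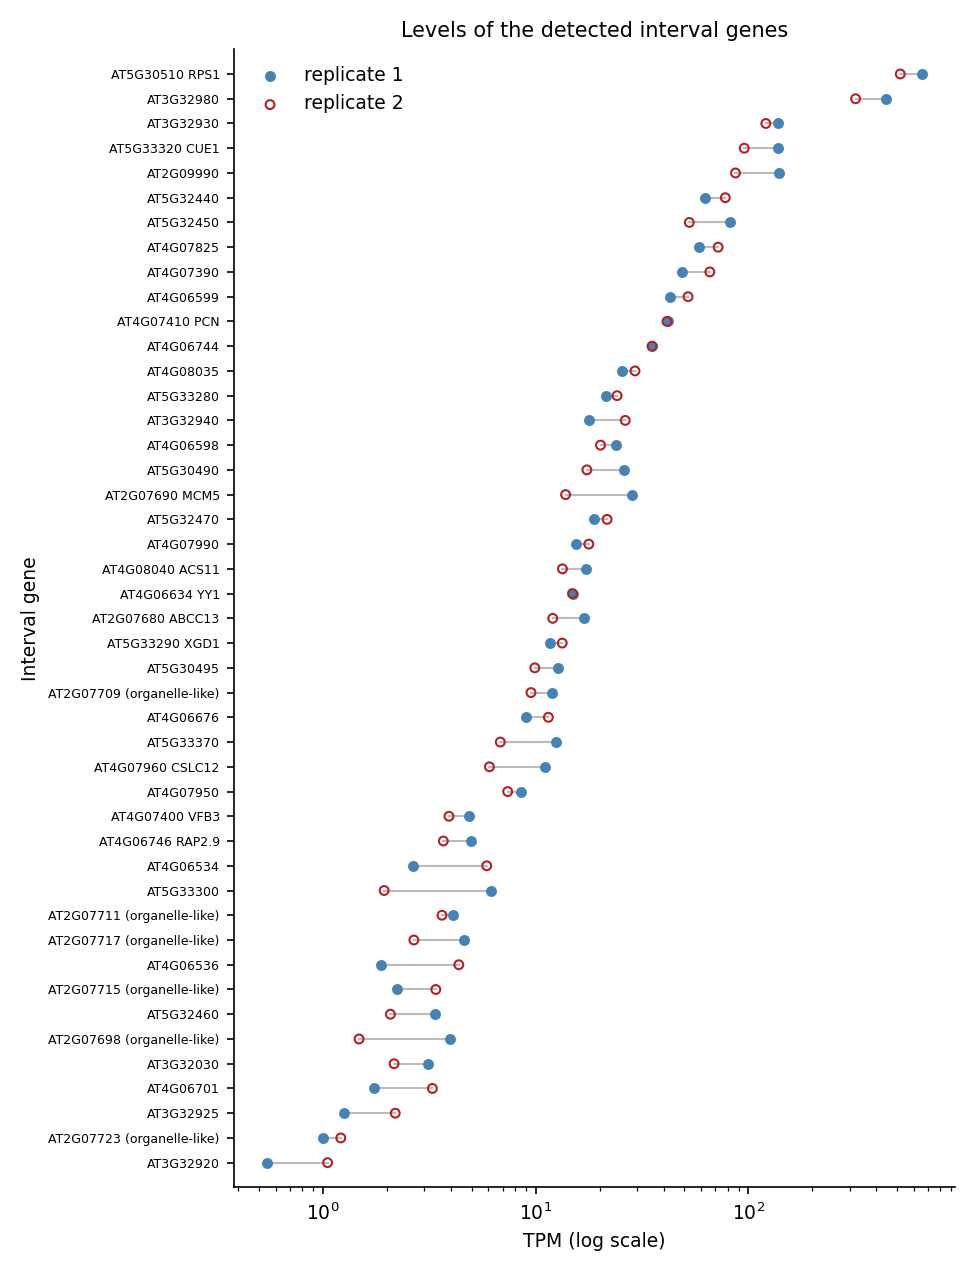
Level in TPM (x axis, log scale) of each of the 45 detected interval genes (rows, ordered by mean), with a filled point for replicate 1, an open point for replicate 2 and a line joining them. RPS1 and AT3G32980 stand above the rest at over 300 TPM in both libraries, and AT3G32920 is lowest at 0.546 and 1.05 TPM.

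Detected and undetected protein-coding genes differed in build. Among those with no copy, the 35 detected had a median of 6 exons and 1628 exon bases, and the 74 undetected 3 exons and 651 exon bases. Outside the intervals the same contrast was seen, with medians of 5 exons and 1796 exon bases for detected and 2 exons and 1029 exon bases for undetected genes. In this class 7 of the 35 detected and 11 of the 74 undetected interval genes (14.9%) had a single exon. Over all classes, 85.7% of undetected interval genes, most of them pseudogenes, had a single exon. A longer transcript gives more reads at the same level, and the part of the count minimum in this difference was not tested.

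Windows around the start, as printed above for 4 loci, were also compared by composition. The median G+C content was 31.7% in windows of the 45 detected genes and 37.7% in those of 1312 undetected interval genes, against 32.7% over all 32792 nuclear windows. TATAAA on either strand was found in 27 of the 45 (60.0%), in 29.0% of the undetected and in 50.1% of all windows of the same 300 bases. Among protein-coding genes with no copy it was found in 25 of 35 detected (71.4%) and 34 of 73 undetected (46.6%) in the intervals, and in 51.6% of those detected outside. The telo box AAACCCTA, a motif of many ribosomal protein genes, was in 6.67% of detected, 4.95% of undetected and 6.22% of all windows, and the G-box CACGTG in 6.67%, 1.98% and 6.89%. Among interval protein-coding genes with no copy the order of the telo box was the opposite, with 1 of 35 detected (2.86%) and 6 of 73 undetected (8.22%), and the G-box was in 2 of each. The motif TATAAA is made of A and T only, and the part of base composition in its share was not tested. A match describes letters and not a working site.

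The interval of chromosome 2 holds a known insertion of mitochondrial DNA, and 129 interval genes matched an organelle genome by the same cutoffs. Of these, 127 lay on chromosome 2 between 3239657 and 3507323, where only 2 of the 129 annotated genes did not match. Of the 129 genes that matched, 74 were identical to the organelle over their whole span. To show how little there is to tell the copies apart, 80 bases of 2 detected genes are printed with the mitochondrial match. They are AT2G07698, annotated as the F1 ATPase alpha subunit, at chr2:3361888-3361967, and AT2G07715, a nucleic acid-binding protein, at chr2:3411659-3411738, both from the plus strand of TAIR10.1, with the differing bases in capitals.
AT2G07698 nuclear: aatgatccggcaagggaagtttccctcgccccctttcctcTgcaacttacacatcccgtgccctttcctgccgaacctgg
AT2G07698 mitochondrial: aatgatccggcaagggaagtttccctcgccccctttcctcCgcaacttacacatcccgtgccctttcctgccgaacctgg
AT2G07715 nuclear: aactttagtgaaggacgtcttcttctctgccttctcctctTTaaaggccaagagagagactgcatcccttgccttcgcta
AT2G07715 mitochondrial: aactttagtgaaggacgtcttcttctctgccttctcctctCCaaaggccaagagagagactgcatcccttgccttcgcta
Over their whole alignments AT2G07698 differed from the mitochondrion at 1 of 2654 bases and AT2G07715 at 4 of 2565.

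Of the 129 organelle-like genes, 6 were detected and 53 had 0 counts in both libraries. The highest was AT2G07709, a pseudogene of an NADH dehydrogenase subunit, with 182 and 87 counts, or 11.9 and 9.51 TPM. AT2G07711 had 71 and 38 counts and AT2G07717 had 80 and 28, both also pseudogenes of NADH dehydrogenase subunits. AT2G07715 had 58 and 53 counts, and AT2G07698 had 116 and 26. All 6 had more counts in replicate 1, the deeper library, and 4 of them were also lower in replicate 2 after scaling. Levels of the group depended on the length used: for AT2G07709 the authors' deposited TPM averaged 1.52, against 10.7 from exon length. Undetected genes of the group included AT2G07727 (cytochrome b, 42 and 8 counts) and AT2G07671 (an ATP synthase subunit, 38 and 1).

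Summed counts of the organelle-like genes were 911 in replicate 1 and 331 in replicate 2, which was 1.61-fold lower once library sizes were scaled. The mitochondrion-encoded genes were 4.45-fold lower (11644 and 1525 counts) and the chloroplast-encoded genes 4.13-fold lower (157371 and 22230), while the 1252 interval genes that did not match an organelle were 1.17-fold lower. The 123 undetected organelle-like genes were 2.69-fold lower (382 and 83) and the 6 detected ones 1.24-fold (529 and 248). Detection requires at least 10 counts in replicate 2 too, so genes low in that library fall into the undetected set. The gap between the undetected and detected ratios is thus partly set by that filter. These ratios compare 2 libraries and carry no test. Whether a read came from the nuclear insertion or from the mitochondrion cannot be told apart in the counts, and the part of mitochondrial transcripts in these values was not tested.

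**Figure D4:**
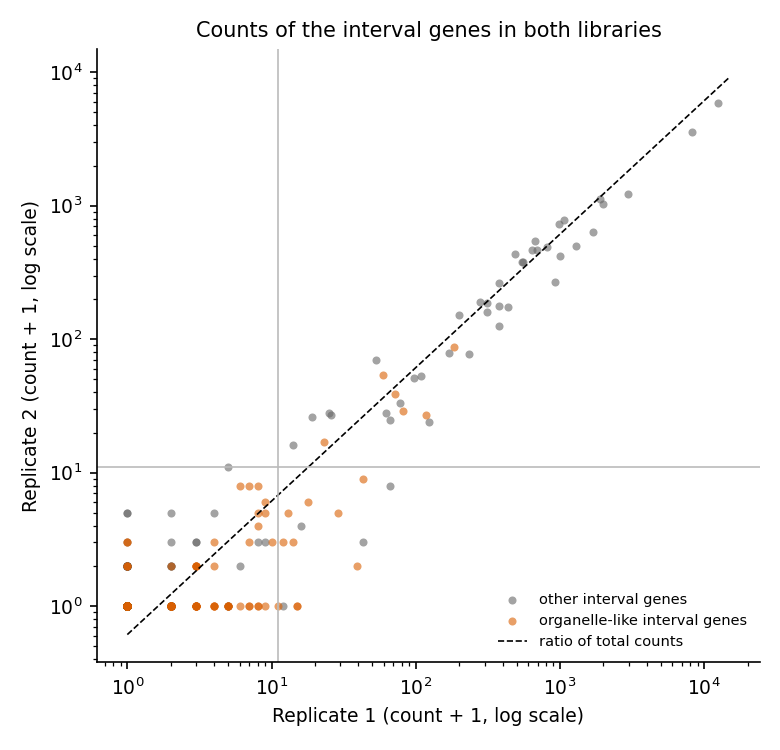
Counts of each interval gene in replicate 1 (x axis) and replicate 2 (y axis), both as count + 1 on log scales, with organelle-like genes coloured apart, the ratio of the library totals dashed and the minimum of 10 counts as grey lines. Most organelle-like genes sit below 10 counts in both libraries. Of those with reads 63 of 76 were lower in replicate 2 after scaling, against 45 of 94 of the other interval genes. For mitochondrion-encoded genes it was 65 of 76. Of the 76 organelle-like genes 70 were undetected, with 382 and 83 counts in sum, and the part of sampling was not tested.

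The replicates were also compared gene by gene, and calls were about as frequent as elsewhere. The two-sided exact conditional binomial test, adjusted by Benjamini-Hochberg over 19519 genes, called 28 of the 45 detected interval genes (62.2%), against 64.2% of all genes tested. Of these, 13 were higher in replicate 2 and 15 lower (32.1% of all genes each way), and with library totals in place of TMM scaling 8 were higher and 15 lower. The median log2 difference was -0.16 (SD 0.61 over genes), against -0.00 (SD 0.87) over all genes tested. This test covers counting error only. The labels name 2 library kits and 2 sequencing centres without saying which library used which, and their part was not tested. With the spread between replicates put in as a common dispersion (a biological coefficient of variation of 38.8%), the edgeR exact test called 0 of the 45, against 0.866% of all genes. At an unadjusted p under 0.05 it was also 0 of the 45, against 1097 of 19519. The dispersion was estimated from the same 2 libraries that the test compares, so their difference also sets its own error. A low number of calls was thus largely fixed in advance, and no conclusion is drawn from it.

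Of the genes that passed the binomial test, those lowest in replicate 2 relative to replicate 1 had varied products. AT5G33300, annotated as a chromosome-associated kinesin-like protein, had 122 and 23 counts, a log2 difference of -1.57 (95% counting interval -2.34 to -0.98, exact binomial adjusted p = 1.08e-07). AT2G07698, the organelle-like ATPase gene, differed by -1.33. MCM5, a subunit of the helicase that opens DNA for replication, had 922 and 268 counts, with a 95% counting interval of -1.21 to -0.81 for the log2 difference (exact binomial adjusted p = 2.05e-25). CSLC12, of the family that makes the xyloglucan backbone of the cell wall, had a log2 difference of -0.82, and AT5G33370, a GDSL lipase gene whose span overlaps another gene, of -0.81. All 5 were lower in replicate 2.

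Higher in replicate 2 was AT4G06534, annotated as an uncharacterized protein, at 52 and 69 counts (log2 difference 1.15, exact binomial adjusted p = 1.86e-05). AT2G07715, with 58 and 53 counts, was higher after scaling by 0.63, AT3G32940 by 0.61, AT4G07390 by 0.47 and AT4G06676 by 0.38 on the log2 scale. With library totals in place of TMM scaling, AT2G07715 and AT4G06676 no longer passed (exact binomial adjusted p = 0.060 and 0.070). Of the 18 genes on chromosome 4, 8 were higher (44.4%) and 2 lower (11.1%), against 32.1% of all genes tested each way. On chromosome 2, 1 was higher and 5 lower of 9, and 6 of those 9 were organelle-like (1 higher and 2 lower). These sets are small, the binomial test covers counting error only, and a direction by chromosome was not tested. On chromosome 5, 3 were higher and 6 lower of 12, and on chromosome 3, 1 was higher and 2 lower of 6. None of the 10 genes named for their difference passed the edgeR exact test, an outcome largely fixed by the way its dispersion was estimated.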

How the data were processed

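RNA was measured in 2 libraries of 1 group. Per the submitters' processing notes the authors used FastQC, Trimmomatic, TopHat and Picard with the build TAIR10; for the read counter and for strandedness of counting, nothing was found (not given in the sources used here). Per the labels' protocols both a stranded and an unstranded TruSeq kit were used, without saying for which library, so reads of overlapping genes (57 of the interval genes, 4.13%) cannot be assigned to a strand. The authors deposited raw counts per gene, without normalization, beside FPKM and TPM columns. The counts were the basis of all values; the authors' TPM served as an alternative, and their FPKM only to look for genes with 0 counts and an FPKM of at least 1 in both libraries, of which the intervals held 0.

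Interval genes were set by position, but this choice and that of the lists were made with earlier results of these data known. Coordinates are those of the files, 1-based, and windows those of TAIR10.1 RefSeq, which matched 1366 of the 1381 IDs, 92.0% of all matched interval genes with the same span. TPM was computed from counts and summed exon length of the RefSeq annotation (17 interval genes had none). That length exceeds the locus in the files for several detected genes. Among them are AT2G09990 (1008 against 722 bases), AT4G06744 (1922 against 1493) and RAP2.9 (1019 against 584). With the span as length the mean of AT2G09990 was 191 TPM, against 113 with exon length. Copies were sought with BLASTN 2.17.0. Library sizes were scaled by TMM (edgeR 4.0.16, R 4.3.3; factors 1.02 and 0.976), log2 differences used a prior count of 2, and the threshold was an adjusted p of 0.05. The binomial test was written in Python 3.11.15 with scipy 1.17.1 and tested on simulated data. Named were the 15 interval genes with the highest mean TPM, the 3 highest per interval, the 5 highest not coding for protein, the 5 largest differences each way with a mean count of at least 50, the detected gene nearest each middle, and the 3 highest organelle-like genes. Alternatives covered the count minimum, gene classes, copies, overlaps, interval borders, depth, length, pseudocount, scaling and test.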

Additional observations from a re-analysis of the deposited data

How the results depend on the processing

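The share of interval genes detected was 3.26%, against 60.8% of the other nuclear genes. It was 6.08% at a minimum of 1 count (70.4% of the others) and 2.39% at 50 (49.3%). Among protein-coding genes it was 20.4% (71.9%), and without genes that have a nuclear copy 4.43% (64.3%). Among protein-coding genes with no copy, a setting chosen after seeing the data, it was 32.1% (72.9%). With each interval widened by 0.5 Mb at both ends it was 6.78% (62.6%). Leaving out 1 replicate gave 3.33% to 4.27% (61.8% to 64.4%). The median level was 0 on the log2(TPM + 1) scale, against 2.60 for the others, and 0 also with either replicate left out (2.53 and 2.62). It was 0.0365 among protein-coding genes (3.31 for the others), -3.32 with a pseudocount of 0.1 (2.35), and 3.94 among detected genes (4.25). The count of interval genes that differed between the replicates was 28 of 45, against 64.2% of all genes tested. Under the other scalings and filters it ranged from 23 to 40, out of differing numbers of genes. It was 23 of 45 with total counts (against 64.5% of all) and 23 of 33 at a minimum of 50 counts (68.7%). With at least 1 count over both libraries it was 40 of 170, against 54.0%. By the edgeR exact test, with a common dispersion estimated from the same 2 libraries, it was 0 of 45, against 0.866%. Under total counts the log2 difference turned from above to below 0 for PCN (-0.042, exact binomial adjusted p = 0.516) and AT4G06744 (-0.037, exact binomial adjusted p = 0.730), neither of which passed either test. Total counts also ended the call for 4 named genes: AT2G07715 (exact binomial adjusted p = 0.060), AT4G06676 (0.070), AT4G08035 (0.097) and AT5G33280 (0.134). Of the 28 detected genes named by the rule, 10 moved in level by more than the SD of the replicates with the authors' TPM and 14 with the span as length, and the cause was not tested. The test between the replicates cannot be made with a replicate left out. No paired analysis was possible because the libraries form a single group. With 2 libraries and no molecular identifiers, depth limits what is said of the 1211 genes at 0 counts to the floor given above.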
